A study of Mus musculus with 6 samples.

Results

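Hepatocellular carcinomas (HCC) with a CLC component that arose from Epcam-expressing cells were compared with HCC without CLC that arose from albumin-expressing cells. The members are the 4 arrays whose titles carry those descriptions, 2 per group, of the 6 arrays in the series. All mice were C57BL/6. The Albumin-derived tumours came from Alb-AID mice killed at 90 weeks of age. The Epcam-derived tumours came from Epcam-AID mice that received tamoxifen and then a diet with 0.1% DDC for 8 months. A further group of 2 arrays, Epcam-derived HCC without CLC from the same line and regimen, entered the fit and is given beside the results where it helps to place a value. The line, the tamoxifen, the diet and the CLC component change together between the groups compared. Their parts in any difference cannot be told apart. Age may differ as well, since the labels used here give it only for the Albumin-derived mice, and its part cannot be told apart either. The labels do not expand CLC, and they do not say whether the replicates of a group are tumours of separate mice. The p-values therefore measure the spread between these samples, which may be technical in part.

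In liver pathology CLC usually stands for cholangiolocellular carcinoma, a tumour of small duct-like cords thought to resemble the canals of Hering, where ductules meet hepatocytes. DDC is a porphyrin-inducing liver toxin that blocks heme synthesis at ferrochelatase and brings out proliferating ductules with progenitor features. Epcam is a surface adhesion molecule of bile duct and ductular cells, whereas albumin is the main secreted protein of hepatocytes. A tumour with a duct-like component is usually recognised by the biliary keratins Krt7 and Krt19, and hepatocyte differentiation by secreted plasma proteins and metabolic enzymes.

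Cy3-labelled RNA of each tumour was hybridised to a 1-colour Agilent array with 62976 spots. Values are log2 signal minus the 75th percentile of the same array, called log2 signal below, and differences are the CLC group minus the Albumin-derived group with the standard error (SE) of the fit. After dim probes were left out, 27412 features (genes, or transcripts without a gene symbol) were tested. The 75th percentile signal was 285 and 306 on the Albumin-derived arrays and 315 and 488 on the CLC arrays, and no spot was saturated. The number of arrays, 2 a group, limits the precision of every value. Log2 signal correlated at r = 0.9695 between the Albumin-derived replicates, 0.9653 between the CLC replicates and 0.9367 to 0.9438 between tumours of the 2 groups, across features, which are not independent replicates. The median absolute log2 difference was 0.338 between the Albumin-derived tumours, 0.388 between the CLC tumours and 0.406 between the group means.

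The 2 CLC tumours stood apart from each other in sex-linked transcripts and in slide. Xist, the RNA that coats the inactive X chromosome, read -0.08 in CLC tumour 1 and -7.77 in CLC tumour 2, where it was not well above background. The Y-linked gene Eif2s3y, a translation factor subunit, read -6.02 in CLC tumour 1 and 1.09 in CLC tumour 2. Of the other Y-linked genes, Ddx3y and Kdm5d were above background in CLC tumour 2 and not in CLC tumour 1. Uty was above background in both, at -3.13 in CLC tumour 1 and -2.38 in CLC tumour 2. The Albumin-derived tumours both carried Eif2s3y signal (1.47 and 1.01), and Albumin-derived tumour 1 also carried Xist above background (-3.11). In Albumin-derived tumour 2 Ddx3y was not above background (-5.01). The Cyp2b genes, cytochromes P450 with sex-dependent expression in mouse liver, also differed between the 2 CLC tumours. Cyp2b9 read 5.12 and 4.70 in the Albumin-derived tumours, 3.64 in CLC tumour 1 and -5.27 in CLC tumour 2. Albumin-derived tumour 2 had Eif2s3y signal and no Xist above background (-6.74), as CLC tumour 2 had, yet its Cyp2b9 stayed at 4.70. CLC tumour 1 lay on the slide of both Albumin-derived tumours, and CLC tumour 2 on the slide of both Epcam-derived tumours without CLC. The sex of the mice is not in the labels used here, and its part in the results was not tested.

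**Figure D1:**
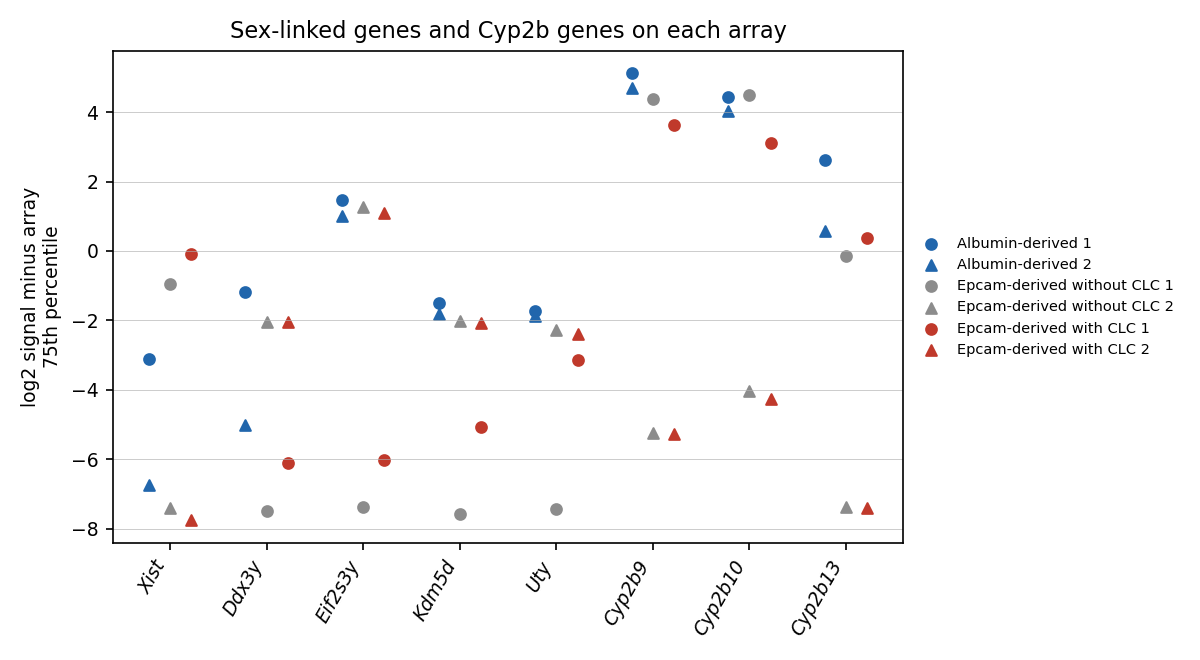
Log2 signal relative to the array's 75th percentile (vertical axis) for Xist, 4 Y-linked genes and 3 Cyp2b genes, with 1 point per array, coloured by group and shaped by replicate. CLC tumour 1 and CLC tumour 2 lie on opposite sides for Xist, Eif2s3y and Cyp2b9, at 3.64 and -5.27 for the last.

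Few genes separated the groups beyond the spread, and those that did were mostly low in the CLC tumours. At a Benjamini-Hochberg adjusted p below 0.05 in limma, 17 features passed (0.062% of those tested), 3 higher (0.0109%) and 14 lower (0.0511%) in the CLC tumours. Of these, 12 had a gene symbol, 1 higher and 11 lower. At an unadjusted p below 0.05 there were 4388 features (16%), 2179 higher (7.95%) and 2209 lower (8.06%). The tumours of the groups did not overlap in 13923 features (50.8%). No feature passed when the 4 arrays were fitted alone, with slide as a fixed block, with replicate number as a block, or without any of the 6 arrays in turn. Several of these are the same fit and not separate checks. Leaving out either Epcam-derived array without CLC gave the result of the 4 arrays alone, since its partner adds nothing to the spread. Slide as a fixed block gave the result without CLC tumour 2. These fits left 2 residual degrees of freedom, against 3 in the main fit. With slide as a random block, 17 passed, but the block correlation was -0.0313, so that fit was nearly the main fit. Where no feature passed, the smallest adjusted p was 0.0505 with the replicate block, and 0.0633 to 0.17 with an array left out.

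**Figure D2:**
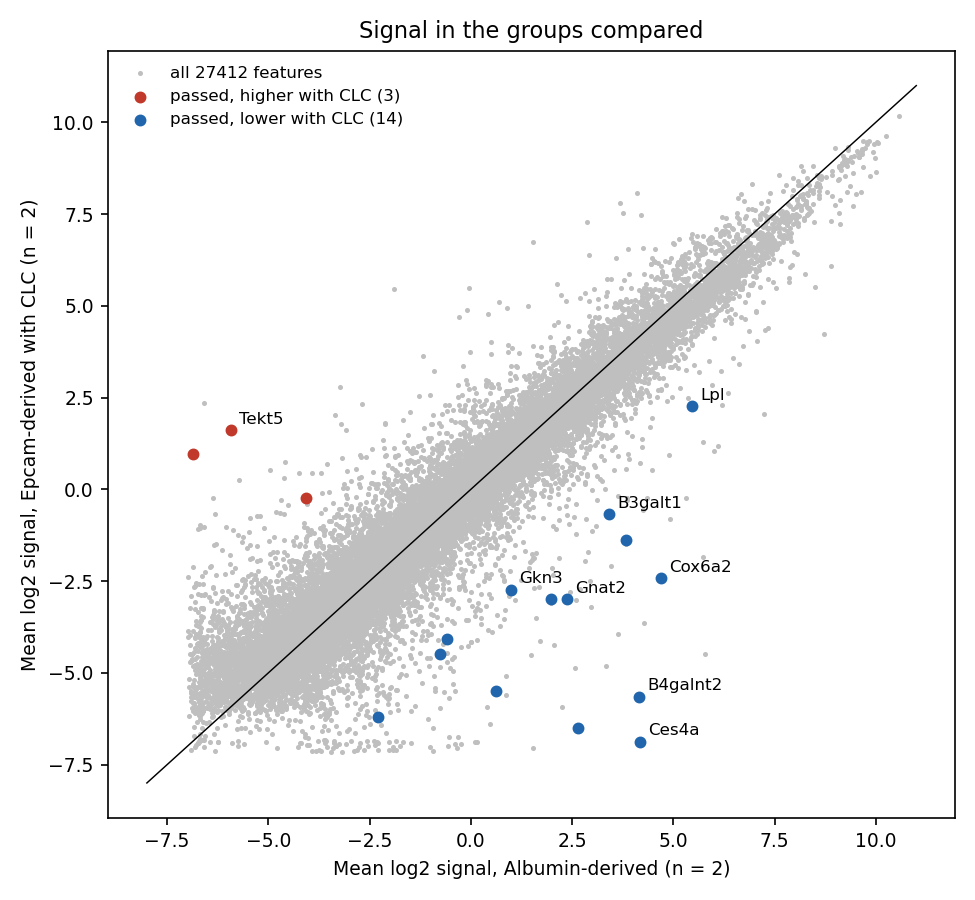
Mean log2 signal of the 2 Albumin-derived tumours (horizontal axis) against that of the 2 CLC tumours (vertical axis) for 27412 features, with the line of equal signal. Coloured points are the 17 features that passed at an adjusted p below 0.05, of which 14 lie below the line and 3 above it.

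Ces4a, which encodes a secreted carboxylesterase, fell to background in the CLC tumours. Ces4a read 4.83 and 3.51 in the Albumin-derived tumours and -6.16 and -7.59 in the CLC tumours, where it was not well above background on either array. Where a probe was not well above background on both arrays of a group, the fold is a bound, set against the lowest signal that was above background on each array. Ces4a fell at least 512-fold (adjusted p = 0.0278, limma). It was as dim in the Epcam-derived tumours without CLC, at -5.93 and -6.10.

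B4galnt2 and B3galt1, which encode glycosyltransferases, fell. B4galnt2, the glycosyltransferase that makes the Sda and Cad blood group antigens, read 4.13 and 4.17 in the Albumin-derived tumours and -6.24 and -5.05 in the CLC tumours, with signal above background on 1 of the 2 CLC arrays. The difference was -9.80 ± 0.49 (SE, adjusted p = 0.0266, limma), and -5.44 by its other probe. B3galt1, a beta-galactosyltransferase, read 3.66 and 3.17 against -0.54 and -0.82, a difference of -4.09 ± 0.30 (adjusted p = 0.0368, limma). Both genes were at their CLC-group level, or near it, in the Epcam-derived tumours without CLC, at -4.50 and -5.30 for B4galnt2 and -0.75 and -0.55 for B3galt1.

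Cox6a2, Gnat2 and Gkn3, best known from muscle, retina and stomach, fell. Cox6a2, the heart and skeletal muscle isoform of a cytochrome c oxidase subunit, read 4.58 and 4.8 in the Albumin-derived tumours and -2.94 and -1.91 in the CLC tumours (difference -7.11 ± 0.45, adjusted p = 0.034, limma). Gnat2, the transducin subunit of cone photoreceptors, read 2.62 and 2.12 against -2.88 and -3.11 (difference -5.36 ± 0.36). Gkn3, a gastrokine secreted by the stomach, read 1.1 and 0.87 against -2.72 and -2.75 (difference -3.72 ± 0.25). In each of the 3 genes the lowest Albumin-derived tumour lay more than 3 log2 units above the highest CLC tumour. The Epcam-derived tumours without CLC lay at or near the CLC level. They read -2.77 and -2.06 for Cox6a2, -1.75 and -2.50 for Gnat2 and -2.79 and -2.97 for Gkn3.

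Lpl, the lipoprotein lipase that frees fatty acids from circulating triglyceride, also fell. It read 5.61 and 5.31 in the Albumin-derived tumours and 2.22 and 2.31 in the CLC tumours, a difference of -3.20 ± 0.26 (adjusted p = 0.046, limma), and its 3 probes ran from -3.35 to -3.20. The Epcam-derived tumours without CLC lay between, at 4.12 and 3.91. Nipal2, a putative magnesium transporter, fell by 3.72 ± 0.29 on the log2 scale. It read -4.59 and -4.36 in the CLC tumours, above background on 1 of the 2 arrays. In the Epcam-derived tumours without CLC it read -7.30 and -7.60, not above background on either array. The size of the gap between those groups is therefore not measured. The other named features that fell were 4930459C07Rik (-6.13), 2310034O05Rik (-5.20) and Gm20627 (-3.49), which have no assigned function here. 4930459C07Rik and Gm20627 were above background on 1 of the 2 CLC arrays. All were also low in the Epcam-derived tumours without CLC, at -4.85 and -5.24, -1.72 and -1.99, and -4.08 and -4.00 in that order. A further 3 features that fell and 2 that rose have no gene symbol.

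Tekt5, a tektin of sperm flagella, was the only gene with a symbol that rose by the test. It read -6.11 and -5.75 in the Albumin-derived tumours, not above background on either array, and 0.90 and 2.32 in the CLC tumours, which is at least 76.6-fold higher (adjusted p = 0.0416, limma). It read 1.84 and 2.93 in the Epcam-derived tumours without CLC.

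The other 9 genes with a symbol among the 10 smallest p in the higher direction did not pass. Ugt1a10, a glucuronosyltransferase, read -2.99 and -2.47 against 0.88 and 0.98 (difference 3.66 ± 0.35, adjusted p = 0.06, limma), with the caution that Ugt1a probes may share sequence. Cbr3, a carbonyl reductase, read 2.17 and 0.91 against 6.47 and 7.0, a difference of 5.19 ± 0.61, the largest fold of the 10 among genes above background on every array compared. Nnmt, which methylates nicotinamide, read -0.39 and -0.27 against 2.35 and 2.70, and lay lower in the Epcam-derived tumours without CLC, at 0.84 and 0.27. Ptgfr, the prostaglandin F receptor, was at least 4.79-fold higher, Vwa7 at least 3.99-fold, Pkia, a protein that restrains cyclic AMP-dependent kinase, at least 3.70-fold and Krt42 at least 1.77-fold. Nrxn2, a synaptic adhesion protein, differed by 4.04 ± 0.51 by its brightest probe and by 2.00 by the other. Gzmb, the granzyme of cytotoxic lymphocytes, differed by 2.06 ± 0.26, with signal above background on 1 of the 2 Albumin-derived arrays. Their adjusted p ran from 0.06 to 0.0751 (limma). Several were also high in the Epcam-derived tumours without CLC, near the CLC tumours or above them. There Cbr3 read 6.69 and 7.96, Ugt1a10 1.90 and 2.61 and Nrxn2 1.63 and 0.77. Ptgfr read -2.32 and -3.43, Vwa7 -2.78 and -2.09 and Gzmb -2.95 and -2.82. Krt42 (-5.16 and -5.24) and Pkia (-5.10 and -4.74) lay below the CLC tumours there, as Nnmt did.

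**Figure D3:**
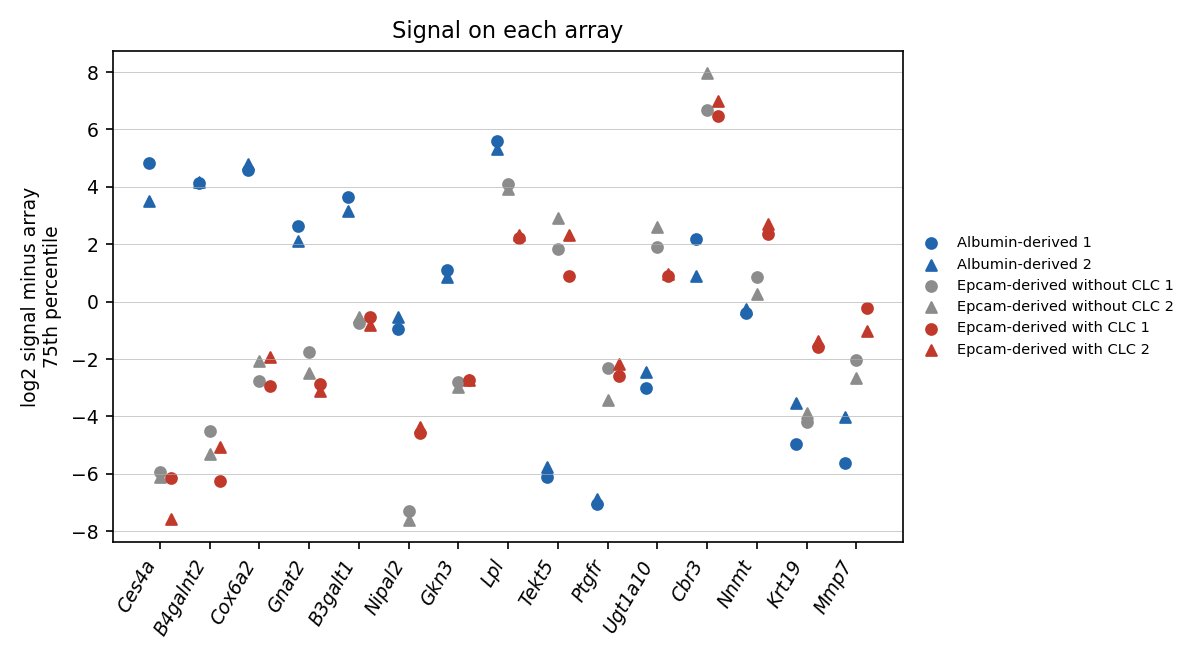
Log2 signal relative to the array's 75th percentile (vertical axis) of 15 genes on all 6 arrays, with 1 point per array, coloured by group and shaped by replicate. For Ces4a the Albumin-derived tumours lie at 4.83 and 3.51 and the other 4 arrays below -5.9, whereas for Krt19 and Mmp7 both CLC tumours lie above the other 4 arrays.

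Gene lists are described below by the number of members measured, by how many reached an unadjusted p below 0.05, read against 7.95% of all features higher and 8.06% lower, and by the median difference, which was -0.01 over all features. In bulk tumour RNA, fewer cells of a type and less RNA per cell cannot be told apart.

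Hepatocyte products read lower in the CLC tumours, by an amount that differed between scalings of the arrays. Of 35 measured hepatocyte genes, none passed the adjusted test, 15 reached the unadjusted threshold lower and 1 higher, and the median difference was -0.57. With quantile normalisation between arrays 9 were lower and the median was -0.06, and with normexp correction and quantile normalisation 12 were lower and the median was -0.11. The 200 brightest features of any kind had a median difference of -0.375, with 170 lower and 30 higher. Serpina6, the corticosteroid-binding globulin, read 9.21 and 8.22 in the Albumin-derived tumours and 3.90 and 4.59 in the CLC tumours (difference -4.47 ± 0.52, adjusted p = 0.0746, limma). The fibrinogen chains differed together, by -2.07 ± 0.48 for Fga, -1.53 ± 0.40 for Fgb and -1.71 ± 0.44 for Fgg. Tat, which breaks down tyrosine, differed by -1.95 ± 0.36 and Apoh, a phospholipid-binding plasma protein, by -1.21 ± 0.30. Pck1, the gluconeogenic carboxykinase, was the member higher at the unadjusted threshold, at 3.84 and 0.87 against 5.53 and 4.75. The summed linear level of 8 hepatocyte markers, relative to the array's 75th percentile, was 5251 and 4736 in the Albumin-derived tumours, 3167 and 2370 in the CLC tumours, and 3226 and 2412 in the Epcam-derived tumours without CLC. All 8 were above background in both groups. The part of cell composition in the gene values was not tested. The list median was -0.39 in CLC tumour 1 and -0.93 in CLC tumour 2, and the count lower was 8 without CLC tumour 2 and 6 without Albumin-derived tumour 1.

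Albumin itself differed by about as much as the median of the hepatocyte list (-0.57). Alb read 10.35 and 10.16 in the Albumin-derived tumours and 9.87 and 9.41 in the CLC tumours. The difference was -0.62 ± 0.29 (adjusted p = 0.375, limma) and did not pass. It was -0.06 with normexp correction and quantile normalisation. Quantile normalisation makes the brightest values alike on all arrays, so it cannot show how far a gene as bright as Alb differed. Afp, the fetal serum protein, read 3.50 and 5.32 against 1.18 and 3.97, so that the groups overlapped (difference -1.83 ± 1.05). The promoters of Alb and Fga, printed because Fga differed more than Alb, hold the letters GTTAATNAT, a core of the HNF1 binding site, here in capitals. The letters were searched on both strands in the 250 bases before the start site, and they occur in 3 of 27 list members with a promoter sequence (11.1%) and in 0.866% of 27025 genes. Sequences are from RefSeq, build GRCm38.p6, written on the gene's strand.
Alb, chr5:90460770-90460869, plus strand: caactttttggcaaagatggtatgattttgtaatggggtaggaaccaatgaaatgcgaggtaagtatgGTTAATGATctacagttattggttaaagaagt
Fga, chr3:83026053-83026152, plus strand: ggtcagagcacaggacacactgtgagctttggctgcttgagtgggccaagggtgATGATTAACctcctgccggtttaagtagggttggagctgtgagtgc

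The biliary genes differed in both directions. Of 37 measured members, none passed the adjusted test, 10 reached the unadjusted threshold higher and 3 lower, and the median difference was 0.64, or 0.35 with dim genes at their bounds. The count higher was 5 without Albumin-derived tumour 1. Krt19, a keratin of bile duct cells, read -4.94 and -3.52 in the Albumin-derived tumours, -1.59 and -1.37 in the CLC tumours, and -4.21 and -3.87 in the Epcam-derived tumours without CLC. The difference from the Albumin-derived tumours was 2.75 ± 0.50 (adjusted p = 0.117, limma). Krt19 was above background on 1 of the 2 Albumin-derived arrays, and its difference was 1.284 at the lowest under other settings. Krt7, its partner in ducts, was not above background on either Albumin-derived array and was at least 2.07-fold higher in the CLC tumours. Mmp7, a matrix protease of injured and cancerous ducts, read -5.64 and -4.00 against -0.23 and -1.01 (difference 4.20 ± 0.62). The Mmp7 reading in Albumin-derived tumour 1 lay below the lowest signal above background on that array (-4.75). Its difference was 1.955 at the lowest under other settings. For all 3 genes both CLC tumours lay above both Albumin-derived tumours.

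Among the other biliary genes, Sctr, the secretin receptor of cholangiocytes, was at least 2.26-fold higher, and the trefoil peptide Tff2 at least 5.26-fold higher. Cd24a, a surface protein of progenitor and biliary cells, differed by 1.85 ± 0.52. Spp1, osteopontin, read 1.99 and 5.20 against 5.88 and 6.73 (difference 2.71 ± 1.04). The members that were low in the CLC tumours are also epithelial. Krt23, a stress-related keratin, read 4.66 and 2.98 against -1.52 and -1.47 (difference -5.32 ± 0.72, adjusted p = 0.0821, limma). Tff3, a trefoil peptide of mucus-secreting cells, read 5.77 and 6.63 against 2.54 and 2.05 (difference -3.91 ± 0.64), and Cdh1, E-cadherin, differed by -1.45 ± 0.50. Epcam read -5.59 and -3.31 against -3.69 and -3.86 and Sox9, a ductal and progenitor transcription factor, -0.95 and -0.73 against -1.24 and 0.22, with the groups overlapping in both. Prom1, a progenitor surface marker, differed by -0.61 ± 1.56. The summed level of 8 bile duct markers was 5.94 and 39.3 in the Albumin-derived tumours and 61.1 and 111 in the CLC tumours. Spp1 made up most of that sum on every array, and without it the other 7 summed to 1.98 and 2.44 against 2.28 and 4.61, which overlap.

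Genes of the NRF2 pathway, which senses electrophiles and oxidants and drives glutathione synthesis and NADPH supply, had a higher median in both CLC tumours. Of 36 measured members, none passed the adjusted test, 16 reached the unadjusted threshold higher and none lower, and 26 did not overlap in the higher direction, where the share over all features was 23.8%. Without CLC tumour 2 the count was 10. The median difference was 0.83, with 0.91 in CLC tumour 1 and 0.81 in CLC tumour 2, and it was 1.11 in the Epcam-derived tumours without CLC, which share the Albumin-derived controls. Nqo1, a quinone reductase, read 0.08 and -0.93 in the Albumin-derived tumours and 2.11 and 2.20 in the CLC tumours (difference 2.58 ± 0.47, adjusted p = 0.116, limma). Gclc, the catalytic subunit that starts glutathione synthesis, differed by 2.31 ± 0.54, and Srxn1, a sulfiredoxin, by 2.00 ± 0.44. Enzymes of the pentose phosphate pathway, which supplies NADPH, were Tkt (1.70 ± 0.35), Taldo1 (1.34 ± 0.35), G6pdx (1.71 ± 0.53) and Pgd (1.52 ± 0.60). Gpx2, a glutathione peroxidase, read 0.63 and -3.00 against 2.96 and 4.27, and Gsta2, a glutathione transferase whose relatives may share probes, 4.8 and 0.91 against 7.03 and 7.52. The sensor Keap1 and the factor Nfe2l2 themselves differed by -0.35 ± 0.28 and 0.12 ± 0.29.

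An antioxidant response core, TGACNNNGC, was found on either strand in the 250 bases before the start of 8 of 31 members with a promoter sequence (25.8%) and of 11.5% of 27025 genes. The promoters of Txnrd1, Gclm and G6pdx, members that hold it, are printed with the match in capitals. Txnrd1, thioredoxin reductase, differed by 1.22 ± 0.58, and Gclm, the regulatory subunit of glutathione synthesis, by 0.46 ± 0.42.
Txnrd1, chr10:82859068-82859167, plus strand: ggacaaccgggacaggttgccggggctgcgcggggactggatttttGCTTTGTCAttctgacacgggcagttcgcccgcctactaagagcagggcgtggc
Gclm, chr3:122245377-122245476, plus strand: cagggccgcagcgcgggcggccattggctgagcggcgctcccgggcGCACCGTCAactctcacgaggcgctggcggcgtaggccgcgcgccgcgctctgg
G6pdx, chrX:74428884-74428983, minus strand: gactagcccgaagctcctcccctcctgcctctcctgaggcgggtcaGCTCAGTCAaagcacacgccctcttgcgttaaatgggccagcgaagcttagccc

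Heme and iron genes, of interest because DDC acts on heme synthesis, had a median difference of 0.03 over 28 measured members, with 6 higher at the unadjusted threshold and none lower. The median was 0.38 in CLC tumour 1 and -0.23 in CLC tumour 2, and the count higher was 3 without CLC tumour 1. Blvrb, biliverdin reductase B, read 3.24 and 2.85 against 5.29 and 5.66 (difference 2.43 ± 0.38, adjusted p = 0.0976, limma). Alas1, the rate-limiting enzyme of heme synthesis in liver, differed by 1.73 ± 0.37, and Bmp6, which signals iron load, by 3.08 ± 0.77. Fech, ferrochelatase itself, differed by -0.09 ± 0.28 and by 0.04 with quantile normalisation, and Hmox1, heme oxygenase, by -0.11 ± 0.54.

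Macrophage genes had a higher median in both CLC tumours than in the Albumin-derived tumours. Of 28 measured macrophage and Kupffer cell genes, none passed the adjusted test, 11 reached the unadjusted threshold higher and none lower, 18 did not overlap in the higher direction (23.8% over all features), and the median difference was 1.43. The median was 0.88 in the Epcam-derived tumours without CLC, against the same Albumin-derived controls. Without CLC tumour 1 the count at the unadjusted threshold was 7. Adgre1, which encodes F4/80, read 0.71 and 0.92 against 2.38 and 2.62 (difference 1.69 ± 0.30, adjusted p = 0.113, limma). Csf1r, the receptor for macrophage growth factor, differed by 1.51 ± 0.34 by its brightest probe and by 0.28 by the other. Cd163, a scavenger receptor, was at least 4.26-fold higher, and C1qa and C1qc, complement chains made by macrophages, differed by 1.61 ± 0.46 and 1.34 ± 0.41. Cd68, a lysosomal protein of macrophages, read 1.90 and 4.05 against 3.23 and 2.57, with the groups overlapping (difference -0.07 ± 0.75, and -0.31 by its other probe). The Kupffer cell marker Clec4f read 1.37 and -1.11 against 3.91 and 1.36, which overlap. The summed level of 8 macrophage markers was 24.8 and 43.7 in the Albumin-derived tumours and 93.8 and 69.9 in the CLC tumours. Csf1r, by its brightest probe, made up the largest part of that sum on each of these arrays, and its other probe differed by 0.28. Cd86, a costimulatory molecule of antigen-presenting cells, differed by 1.79 ± 0.28, the smallest p of 21 antigen presentation genes, which had a median of 0.73. Of 24 T and NK cell genes the median was 0.64, at 0.11 in CLC tumour 1 and 1.08 in CLC tumour 2, with Ccl5, a chemokine of T cells, at 1.72 ± 0.42 and Zap70, a T cell kinase, at -1.83 ± 0.53.

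Interferon response genes were higher in CLC tumour 2 than in CLC tumour 1. The median over 28 measured members was 1.18, made of 0.28 in CLC tumour 1 and 2.00 in CLC tumour 2, and 7 members reached the unadjusted threshold higher. That count was 1 without CLC tumour 2, 17 without CLC tumour 1 and 2 without Albumin-derived tumour 2. Oasl1, an antiviral regulator, read 2.36 and 2.09 in the Albumin-derived tumours and 4.73 and 5.88 in the CLC tumours (difference 3.08 ± 0.77, adjusted p = 0.169, limma). Irf7, an interferon-induced transcription factor, differed by 1.94 ± 0.60. Ifit3, whose protein blocks viral translation, read 0.34 and -0.41 against 0.98 and 4.51, and Ifit1 -1.21 and -2.52 against -0.79 and 2.56, and in both genes Epcam-derived tumour 2 without CLC was also high, at 3.76 and 1.95. CLC tumour 2 is also the CLC tumour on the second slide and the one without Xist signal, and the part of either in these values was not tested.

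The promoters of Ifit3, Ifit1 and Rsad2 are printed because they carry the core of the interferon-stimulated response element (TTTC, then 2 bases of any kind, then TTTC), in capitals. On either strand it lay in the 250 bases before the start of 13 of 22 list members with a promoter sequence (59.1%) and of 3.46% of 27025 genes. Rsad2, viperin, differed by 2.45 ± 0.76 and was 0.03 and -0.59 in the Albumin-derived tumours and 1.52 and 2.83 in the CLC tumours.
Ifit3, chr19:34583345-34583444, plus strand: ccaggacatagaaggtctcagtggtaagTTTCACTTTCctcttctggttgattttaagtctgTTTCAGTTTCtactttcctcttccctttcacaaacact
Ifit1, chr19:34640749-34640848, plus strand: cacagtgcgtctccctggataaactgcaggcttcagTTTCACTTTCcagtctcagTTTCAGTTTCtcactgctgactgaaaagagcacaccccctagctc
Rsad2, chr12:26456518-26456617, minus strand: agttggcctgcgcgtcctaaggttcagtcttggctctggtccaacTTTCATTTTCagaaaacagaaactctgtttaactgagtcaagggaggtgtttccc

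Pericentral genes, which Wnt signalling keeps on around the central vein, had a median difference of 0.91 over 24 measured members, with 7 higher and 1 lower at the unadjusted threshold and 15 not overlapping in the higher direction, where the share over all features was 23.8%. The count higher was 4 without CLC tumour 2. Glul, glutamine synthetase, read 2.64 and 2.72 against 4.57 and 4.03 (difference 1.62 ± 0.46). Oat, ornithine aminotransferase, differed by 2.25 ± 0.36 (adjusted p = 0.102, limma), Tbx3, a Wnt-responsive transcription factor, by 1.69 ± 0.42, and Cyp1a2 by 3.55 ± 0.61. Lgr5, a Wnt receptor partner, read -3.94 and -4.88 against -3.64 and -2.83, and Rgn, a calcium-binding liver protein, differed by -1.15 ± 0.45. The median was 0.29 in the Epcam-derived tumours without CLC. Of 30 urea cycle and amino acid genes, whose first enzyme Cps1 is periportal, 4 were higher and 5 lower at the unadjusted threshold, with Cps1 at -1.23 ± 0.33, Hal, which breaks down histidine, at -1.93 ± 0.31 and Hpd, of tyrosine breakdown, at 1.59 ± 0.43. Those counts were 1 higher and 6 lower without Albumin-derived tumour 2, and 1 higher and 4 lower without CLC tumour 1.

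Of 52 measured cytochrome P450, phase 2 and carboxylesterase genes, 1 fell (Ces4a) and none rose by the adjusted test, while 13 were higher and 4 lower at the unadjusted threshold. The counts were 8 higher and 8 lower without CLC tumour 1, and 6 higher and 4 lower without Albumin-derived tumour 2, where the median went from 0.39 to -0.10. Cyp3a44, a female-biased cytochrome, read 6.18 and 5.37 against -2.86 and -6.14 (difference -10.27 ± 1.22, adjusted p = 0.0746, limma), and its probe may share sequence with other Cyp3a genes. Its signal was above background on 1 of the 2 CLC arrays. Cyp1a1, an inducible cytochrome, was at least 5.23-fold higher, and Cyp2c50, Cyp2c54 and Cyp2c37, close relatives whose probes may not separate them, differed by 2.36 ± 0.62, 2.44 ± 0.67 and 2.20 ± 0.63.

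Fatty acid oxidation genes and targets of PPARa had a median difference of 0.86 over 31 members, at 1.31 in CLC tumour 1 and 0.35 in CLC tumour 2. Of these, 1 fell (Lpl) and none rose by the adjusted test, and 9 were higher at the unadjusted threshold. That count was 1 without CLC tumour 1, 14 without CLC tumour 2 and 2 without Albumin-derived tumour 2. Cd36, a fatty acid transporter, read 0.40 and 0.33 against 3.26 and 2.40, and Fgf21, a fasting hormone, differed by 1.75 ± 0.52. Acot3, a peroxisomal thioesterase, read -4.18 and -3.68 against 2.66 and -1.76, with most of the difference in CLC tumour 1. Cidec, a lipid droplet protein, showed the same order, at 0.91 and -0.99 against 7.0 and 3.95 (difference 5.52 ± 1.1, adjusted p = 0.123, limma), while the Epcam-derived tumours without CLC read 1.22 and 1.1. Lipid and cholesterol synthesis genes had a median of -0.04 over 36 members, and of 0.16 with quantile normalisation.

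In bile acid handling, the enzymes Cyp8b1 and Cyp2c70 and the exporters Abcg5, Abcg8 and Abcb11 read lower in the CLC tumours and the exporter Abcc3 read higher. Cyp8b1, the sterol hydroxylase of cholic acid synthesis, read 1.1 and 0.20 against -4.39 and -2.46 (difference -4.08 ± 0.92), and Cyp2c70, which makes muricholic acids, 6.60 and 6.95 against 4.85 and 4.46 (difference -2.12 ± 0.28, adjusted p = 0.0818, limma). For Cyp8b1 the reading in CLC tumour 1 lay below the lowest signal above background on that array (-4.07). Abcc3, the basolateral exporter that carries conjugates back to blood, read 2.58 and 3.07 against 5.45 and 5.25 (difference 2.52 ± 0.39). The sterol exporters Abcg5 and Abcg8 differed by -1.27 ± 0.26 and -1.72 ± 0.29, and the canalicular pump Abcb11 by -1.33 ± 0.53. Over 27 measured members 4 were higher and 6 lower at the unadjusted threshold, with a median of -0.14 that was 0.11 with quantile normalisation and 0.37 without Albumin-derived tumour 1. The count higher was 2 without Albumin-derived tumour 2 and 2 without CLC tumour 1.

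**Figure D4:**
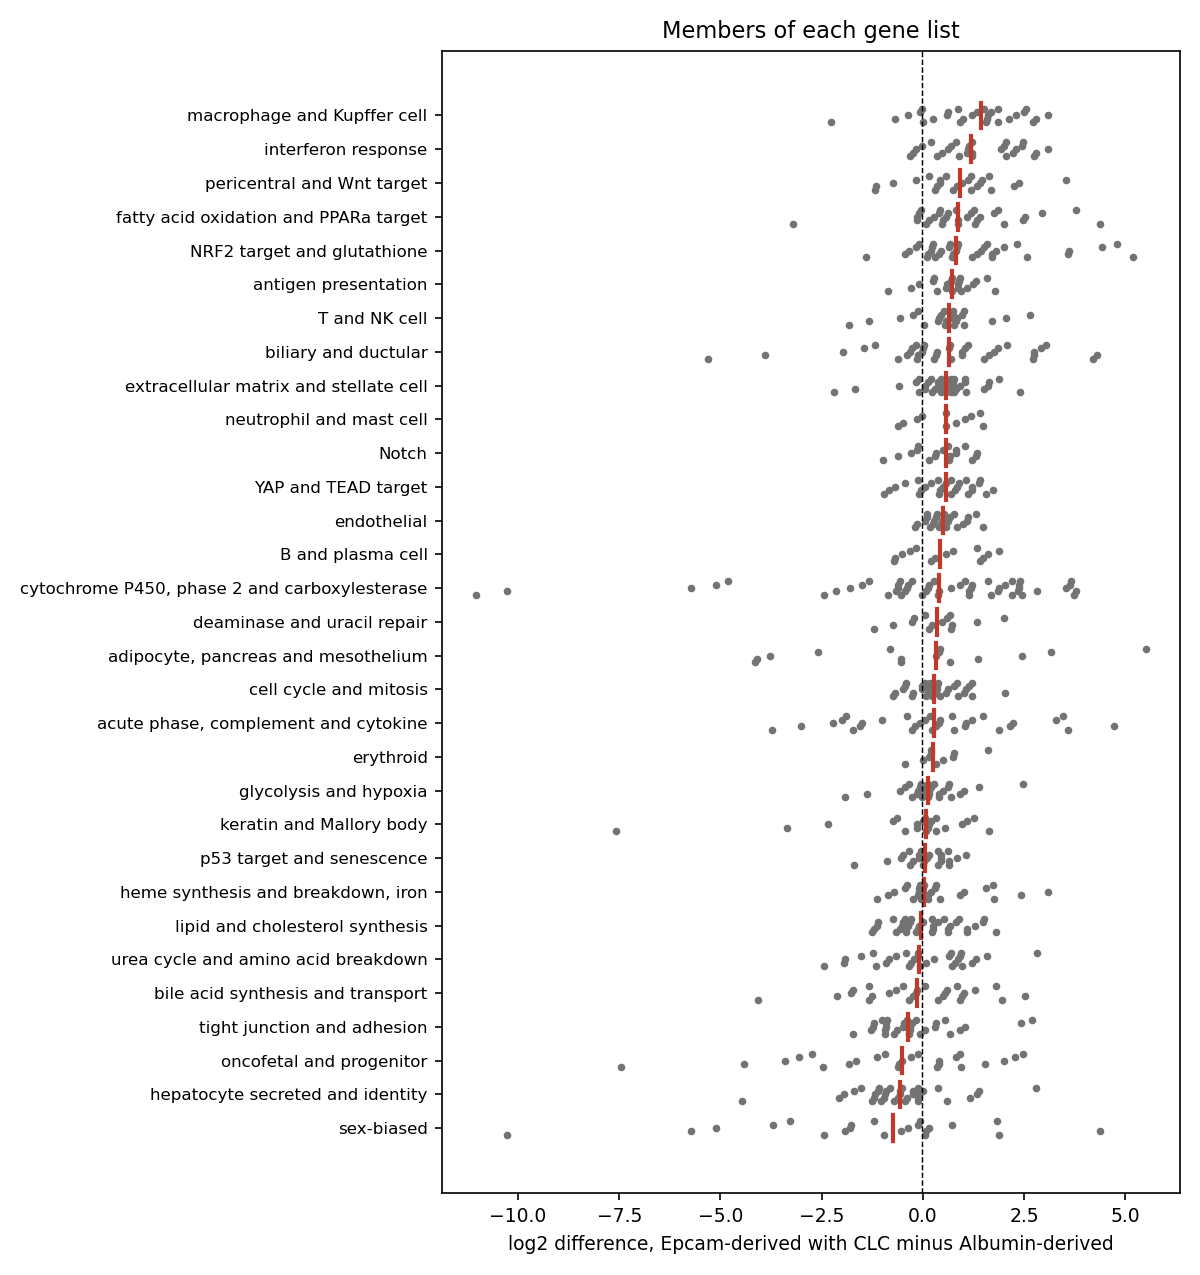
Log2 difference, CLC minus Albumin-derived (horizontal axis), of each measured member of 31 gene lists (vertical axis), with 1 point per gene, the list median as a red bar and the median of all features as a dashed line. Macrophage genes have a median of 1.43 and hepatocyte genes of -0.57, and Ces4a and Cyp3a44 lie at the far left.

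**Figure D5:**
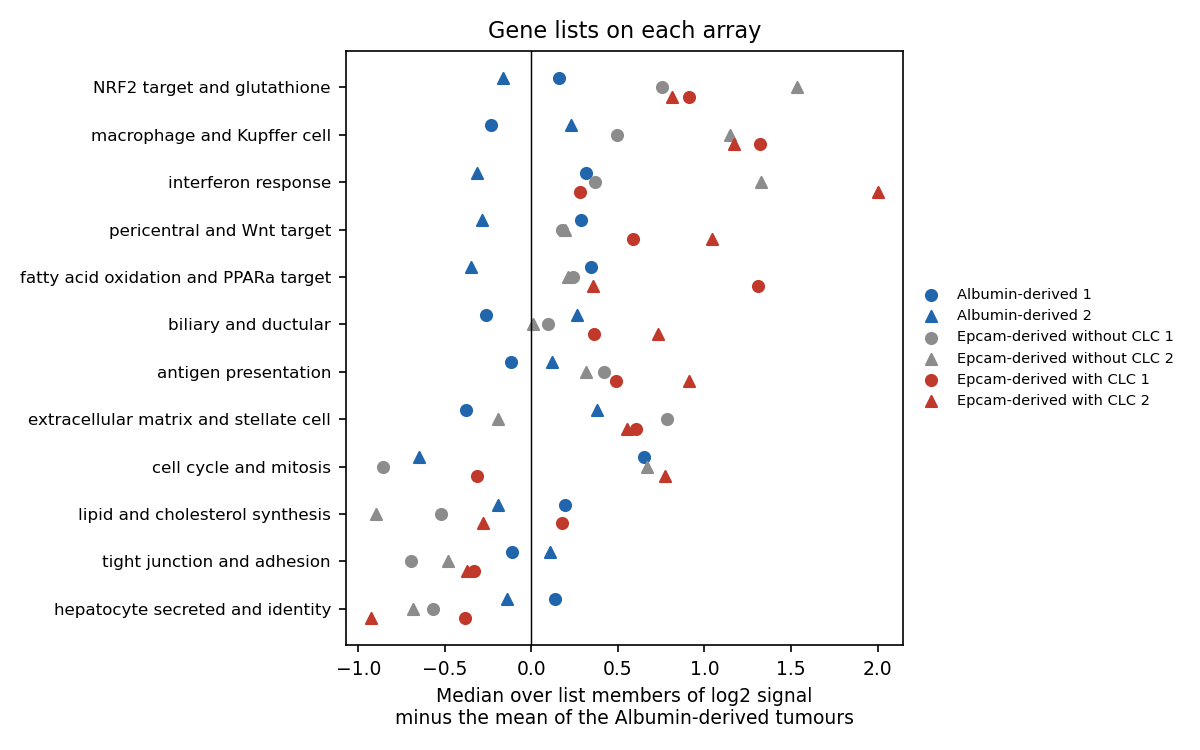
Median over the members of 12 gene lists (vertical axis) of log2 signal minus the mean of the Albumin-derived tumours (horizontal axis), with 1 point per array, coloured by group and shaped by replicate. Interferon response genes lie at 0.28 in CLC tumour 1 and 2.00 in CLC tumour 2, whereas NRF2 genes lie at 0.91 and 0.81.

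Genes of cell contact and matrix showed a mixed picture. Of 30 tight junction and adhesion genes, 3 were higher and 5 lower at the unadjusted threshold, with a median of -0.37. The counts were 1 higher and 2 lower without Albumin-derived tumour 1, the same without CLC tumour 1, and 2 higher and 3 lower without CLC tumour 2. Ocln and Cldn3, sealing proteins of tight junctions, differed by -1.73 ± 0.33 and -1.28 ± 0.28. Of 41 extracellular matrix and stellate cell genes, 2 were higher and none lower at the unadjusted threshold, with a median of 0.58, made of 0.60 in CLC tumour 1 and 0.55 in CLC tumour 2. The count higher was 6 without Albumin-derived tumour 2 and 1 without CLC tumour 2, and without Albumin-derived tumour 1 there were 3 higher and 1 lower with a median of 0.19. Mmp2, a gelatinase, read -4.53 and -2.99 against -2.22 and -0.50. Among keratins and genes of Mallory bodies, the protein aggregates that DDC brings out in hepatocytes, Anxa8, a calcium-binding annexin, read 4.82 and 6.63 against -1.75 and -1.95 (difference -7.58 ± 0.76, adjusted p = 0.0607, limma). Krt8 and Krt18, the hepatocyte keratins of those bodies, differed by 0.21 ± 0.32 and 0.08 ± 0.29.

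Cell cycle genes had a median of 0.28 over 32 members, at -0.32 in CLC tumour 1 and 0.77 in CLC tumour 2, and none reached the unadjusted threshold in either direction. Of 25 oncofetal and progenitor genes, 3 were higher and 3 lower at that threshold, with Lgals1, a galectin, at 2.01 ± 0.46, Bex2, a brain-expressed growth regulator, at -7.45 ± 1.47 and Igf2bp3, a fetal RNA-binding protein, at -4.41 ± 1.14. The oncofetal counts were 1 higher and 3 lower without CLC tumour 1, and 5 higher and 7 lower without CLC tumour 2. YAP and TEAD targets had a median of 0.56 over 27 members, at 0.28 in CLC tumour 1 and 1.00 in CLC tumour 2, with 3 higher. That count was 0 without Albumin-derived tumour 1, 5 without CLC tumour 1 and 1 without CLC tumour 2. Notch genes, 18 measured, had 2 higher, among them the modifier Lfng (1.34 ± 0.28), and 1 lower, and the count higher was 4 without CLC tumour 1 and 1 without CLC tumour 2. Of 24 p53 target and senescence genes 1 was higher and 1 lower, and the counts ran from 0 to 2 higher and from 1 to 2 lower with single arrays left out. Of 14 deaminase and uracil repair genes, Ung, which excises uracil from DNA, differed by -1.20 ± 0.35, and Polh, a translesion polymerase, was at least 2.52-fold higher.

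The acute phase list, 32 measured members, had 4 higher and 6 lower at the unadjusted threshold, and 2 higher and 8 lower without CLC tumour 2. Apcs, serum amyloid P, read 6.22 and 6.51 in the Albumin-derived tumours and 2.94 and 2.32 in the CLC tumours (difference -3.74 ± 0.45, adjusted p = 0.0746, limma), and Itih3, a hyaluronan-binding plasma protein, differed by -2.21 ± 0.42. Orm3, an orosomucoid of a near-identical family, read -4.41 and -1.76 against 2.01 and 1.24. Of 15 measured adipocyte, exocrine pancreas and mesothelium genes, 3 were higher and 4 lower at the unadjusted threshold, with a median of 0.32. That sign was not stable. The median was -0.39 in CLC tumour 1 and -0.61 in CLC tumour 2 taken singly, and -0.55 with probes above background on all 6 arrays. The pancreas genes Cela2a and Amy2a5 differed by -4.11 ± 0.56 and -4.14 ± 0.63, Cela1 by -0.55 ± 0.45 with the groups overlapping, and Ctrb1 by -0.54 ± 0.30. Amy2a5 has near-identical amylase relatives. The erythroid marker sum was 191 and 126 in the Albumin-derived tumours and 534 and 70.7 in the CLC tumours, so that the CLC tumours lay above and below both Albumin-derived tumours. The lists whose medians are not given above had medians between -0.75 and 0.57.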

How the data were processed

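RNA of 6 tumours, 2 per group, was extracted from frozen tissue and Cy3-labelled from 0.1 µg, per the labels' protocols. The deposited scanner files hold spot intensity from Agilent Feature Extraction, per the file headers and the submitters' processing notes, on a design mapped to mm9. The processed signal (gProcessedSignal), already background-corrected per the file headers, was the value used. The authors' deposited value table holds the same intensity times 1 factor per array (1.642 to 2.425), with column medians of 54.96 to 79.95 and a linear scale, and was an alternative source.

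Control spots and spots with an outlier flag were left out, replicate spots of a probe were averaged, log2 was taken and each array's 75th percentile subtracted. A probe was kept where, in 1 or more groups, each array showed at least 0.5 of its spots well above background, which left 34777 of 56605 probes. Symbols came from the RefSeq table of GRCm38.p6 through accessions (32994 probes, 22911 symbols), and other probes kept the name in the file. The probe with the highest mean stood for a gene. All 6 arrays entered 1 limma 3.58.1 fit (R 4.3.3) with a coefficient per group, 3 residual and 2.62 prior degrees of freedom, eBayes and Benjamini-Hochberg adjustment over 27412 features. The fit was tested on simulated data. No covariate was used.

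The genes named are the called genes, the 10 smallest p in the higher direction because fewer than 5 passed with a symbol, up to 4 members of smallest p in each of 31 lists, and fixed markers. Further members were named after their values were seen, among them Fech, Hmox1, Krt8, Krt18, Keap1, Nfe2l2, Txnrd1, Gclm, Ifit1, Ifit3 and many members past the unadjusted threshold. Some named genes are not reported here. The comparison and the lists were chosen with earlier results of these data known. Alternatives covered scaling, background correction (normexp with offset 50 on the median signal, since the files hold no mean signal), filter, probe choice, variance model, slide, replicate number and each array left out. The counts per list under each alternative were added after seeing the data.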

Additional observations from a re-analysis of the deposited data

How the results depend on the processing

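Of the 17 features called, 3 higher and 14 lower, the count was 0 in either direction with only the 4 arrays compared, with slide as a fixed block, within slide 1, and without any 1 of the 6 arrays in turn (range 0 to 0 for called, higher and lower). At an unadjusted p below 0.05 these limma fits gave 4310, 3293, 3473 and 3108 to 4310 features, against 4388. Several of these fits coincide, as described above, and are not separate checks. With 1 Albumin-derived or CLC array left out, the lone array of the group is assumed to vary like the others. Quantile normalisation gave 66 calls, 9 higher and 57 lower, which hold all 17, and normexp with quantile normalisation gave 39, 3 higher and 36 lower, of which 14 are shared. Without a filter on dim probes there was 1 call, higher, and 0 lower. Every probe on its own gave 22 lower, a trend with a robust prior gave 27 calls, 5 higher and 22 lower, and features with a symbol alone gave 1 higher. The authors' value table, slide as a random block and the other alternatives stayed within 1.5 times of each count. A similar count did not always mean the same features. With probes above background on all 6 arrays there were 21 calls, of which 8 are shared. The causes were not tested.

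The replicate numbers did not pair the Albumin-derived and CLC arrays (correlation of deviations of the same number 0.0619). That correlation was -0.159 between Albumin-derived arrays and those of Epcam-derived tumours without CLC, and 0.232 between both Epcam-derived groups. In both Epcam-derived groups Xist was above background on replicate 1 alone, and Eif2s3y on replicate 2 alone. In the Epcam-derived tumours without CLC, Xist read -0.95 and -7.42 and Eif2s3y -7.39 and 1.26. With the replicate block, limma called 0 features, 0 higher and 0 lower, with a smallest adjusted p of 0.0505 and 4273 at an unadjusted p below 0.05.

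Among named genes, none of those called changed sign under any alternative. Small differences did. Fech was 0.0387 with quantile normalisation and 0.0445 with normexp, where Cd68 was 0.0247. With a slide term in the fit, and also on slide 1 alone, Cd68 was 0.261, Fech 0.0568, Hmox1 0.362, Nfe2l2 -0.126 and Sox9 -0.402. With single arrays left out, Cd68 ran from -1.15 to 1.0, Cela1 from -1.14 to 0.0365, Fech from -0.25 to 0.0792, Hmox1 from -0.739 to 0.526, Nfe2l2 from -0.126 to 0.359, Sox9 from -0.402 to 1.06, Epcam from -0.459 to 1.81, Krt18 from -0.125 to 0.292 and Krt8 from -0.0321 to 0.447. Among called genes with a symbol, signal over background limits Ces4a and Tekt5 to bounds. B4galnt2, 4930459C07Rik, Nipal2 and Gm20627 were above background on 1 of the 2 CLC arrays. Other named genes given as at least a stated fold are bounds as well. Bex2, Bmp6, Cyp8b1, Gzmb, Igf2bp3, Krt19, Mmp7 and Prom1, given as plain differences, were not above background on all 6 arrays.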

Other observations

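Pde6c, Omp, Vmn2r1 and Vmn2r4, known from sensory cells as Gnat2 is, were picked after their values were seen. Pde6c, a cone photoreceptor phosphodiesterase, read 3.21 and 2.68 in the Albumin-derived tumours and -3.28 and -1.73 in the CLC tumours (difference -5.45 ± 0.61, adjusted p = 0.074, limma). Omp, the olfactory marker protein, read 2.65 and 2.55 against -2.93 and -3.12. The vomeronasal receptor gene Vmn2r1 was at least 10.2-fold lower and Vmn2r4 differed by -4.34 ± 0.49. None passed the adjusted test, and in all 4 genes the Epcam-derived tumours without CLC lay on the side of the CLC tumours.

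Hspa5, Hsp90b1, Calr, Ppib, Sdf2l1 and Ddit3, known from protein folding and stress of the endoplasmic reticulum, were also picked after their values were seen, and none passed the adjusted test. Hspa5, which encodes BiP, read 8.12 and 8.41 in the Albumin-derived tumours and 5.58 and 6.14 in the CLC tumours (difference -2.40 ± 0.30, adjusted p = 0.0751, limma). Ppib, a cyclophilin of the secretory pathway, differed by -2.0 ± 0.25, Hsp90b1 by -1.81 ± 0.32, Calr by -1.36 ± 0.24 and Sdf2l1 by -3.08 ± 0.47. Ddit3, the stress-induced transcription factor CHOP, read 3.40 and 4.31 against -0.72 and 0.24 (difference -4.09 ± 0.48).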
